A study of Mus musculus with 6 samples.

Results

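CD8 T cells, the lymphocytes that carry the CD8 coreceptor and kill infected cells, were picked from single-cell RNA libraries of mouse lung by the transcripts that define them. A barcode (the tag of 1 droplet) counted as a CD8 T cell when 200 or more genes were detected in it and mitochondrial genes made up no more than 10% of its UMIs, where a UMI (unique molecular identifier) marks 1 captured transcript. It also needed at least 2 UMIs of Cd3d, Cd3e and Cd3g together and at least 1 of Cd8a and Cd8b1 together. It could hold no Cd4, Cd79a or Ncr1 UMI, less than 5% of its UMIs from S100a8 and S100a9, and at most 1 UMI of Csf3r and at most 1 of C1qa, C1qb and C1qc together. The rule found 2006 cells among 64428 barcodes in 6 libraries, or 3.25% of the 61736 barcodes that passed the gene and mitochondrial limits. The genes of this rule were used to choose the cells, so their levels are described and not tested.

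The libraries hold lung cells enriched for CD45, the surface protein of blood-derived cells, with magnetic beads after enzymatic digestion and red cell lysis. Mice received 10 mg/kg of LPS (lipopolysaccharide, an endotoxin of bacterial outer membranes) or vehicle into the peritoneal cavity and were studied 4 h later. They were NOS1-/- mice (KO), which lack a working gene for neuronal nitric oxide synthase, or wild-type mice (WT) of a strain that the design text spells C65BL6. There were 2 KO LPS, 2 WT LPS, 1 KO vehicle and 1 WT vehicle libraries, and the labels give no age, no allele of Nos1 and no number of mice per library. Whether libraries of a group came from separate mice is not given, so p-values measure only the spread between these libraries. For gene changes with LPS or genotype, that spread comes from the 2 pairs of LPS libraries, since each vehicle group is 1 library. The spread between vehicle libraries is assumed to be the same. Its estimate is shared over genes, so a small p-value does not rest on the replicates of that gene alone.

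Resting CD8 T cells circulate through lymphoid organs and blood, held there by homing receptors such as Ccr7 and by transcription factors of the naive state such as Lef1 and Tcf7. Memory and effector CD8 T cells carry granzymes, proteases that kill target cells, and can respond to interleukins and interferons without meeting their antigen. Interferons act through JAK kinases and raise antiviral genes, guanylate-binding proteins and the antigen-presentation machinery, while SOCS proteins damp this signal.

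CD8 T cells numbered 249 and 176 in the KO LPS libraries, 141 and 135 in the WT LPS libraries, 617 in the KO vehicle library and 688 in the WT vehicle library. Their median depth was 5819 and 4238 UMIs per cell in KO LPS, 6055 and 4522 in WT LPS, 4496 in KO vehicle and 3441.5 in WT vehicle. Of the members, 281 had exactly 1 Cd8 UMI, the edge of the rule. Just outside it, with 1 Cd3 UMI, lay 30 and 38 barcodes in KO LPS, 37 and 56 in WT LPS, 3 in KO vehicle and 13 in WT vehicle. Over the 4 LPS libraries, Dapl1 was found in 20.2% to 44.5% of cells with 2 or more Cd8 UMIs, in 11.5% to 28.2% of those with 1, and in 13.5% to 31.6% of barcodes just outside.

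Many members also held transcripts of other cell types. In 457 cells (22.8%), 10 or more UMIs came from a monocyte and macrophage, B cell, dendritic cell, or endothelial, stromal and epithelial marker list, mostly from the myeloid one (423 cells). These are called mixed-lineage barcodes here, and the other 1549 single-lineage cells; the split was chosen after the data were seen. Mixed-lineage barcodes were 24.1% and 28.4% of members in KO LPS, 24.1% and 25.9% in WT LPS, 18.8% in KO vehicle and 23.5% in WT vehicle, and they held 43.0% to 60.7% of all UMIs of the members. In the KO LPS libraries, 34 of 110 mixed-lineage barcodes carried both Xist and Y-linked UMIs, against 2 of 315 single-lineage cells. Depth differed too, with medians of 16971 and 14683 UMIs in mixed-lineage barcodes and 5297 and 3645.5 in single-lineage cells of these libraries. Its part in finding both marks was not tested. Scrublet scores how much a barcode resembles a doublet, a droplet with 2 cells. A share of barcodes set beforehand, those with the highest scores, was marked in each library. It included 137 members, of which 123 were mixed-lineage. Scrublet's own threshold called 540 and 2 barcodes in KO LPS, 0 in each WT LPS library, 2007 in KO vehicle and 1914 in WT vehicle. Where a change is given for both sets, all gated cells come first and single-lineage cells after them unless stated otherwise; some changes are given for 1 set, which is then named. Levels per library are CPM in single-lineage cells (summed UMI counts divided by the library's total and scaled to a common total, with a trimmed mean of M values correction), unless stated otherwise; plain CPM lacks that correction.

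The single-lineage cells carried the T cell genes of the rule, and with LPS also neutrophil and NK transcripts, since the split used neither of those lists. Cd8b1 stood at 648 and 684 CPM in KO LPS, 743 and 796 in WT LPS, 811 in KO vehicle and 977 in WT vehicle, and Cd3d at 582 and 655, 582 and 666, 885 and 1063 CPM in the same order of libraries. Both were lower in each LPS library than in either vehicle library. Summed monocyte and macrophage markers were at 199 to 469 CPM in LPS libraries and 251 to 253 CPM in vehicle libraries, where all gated cells had 8123 to 9619 and 6019 to 7429 CPM. Summed neutrophil markers moved with LPS, at 1382 to 1685 CPM in LPS libraries and 55.8 to 86.8 CPM in vehicle libraries, so with LPS their sum was above the level of Cd8b1. Lcn2, a neutrophil granule protein, was found in 43.7% to 87.9% of single-lineage cells with LPS and in 0.190% to 0.399% with vehicle; in B cells gated the same way it was found in 39.9% to 77.9% with LPS. In single-lineage cells S100a8 stood at 0.0122 to 0.0347 of its level over the whole library and Lyz2, a myeloid lysozyme, at 0.0134 to 0.0213. The summed B cell list was at 76.2 to 114 CPM with LPS and 318 to 397 CPM with vehicle, and the endothelial, stromal and epithelial list at 64.2 to 126 and 122 to 124 CPM. The NK list, which shares Gzma with the memory and effector list, was at 703 to 3110 CPM with LPS and 370 to 821 CPM with vehicle. Dcn, Clec9a and Siglech were at 0 in single-lineage cells, and Cd79a, Cd4 and Ncr1 at 0 by the rule. The myeloid, B cell, dendritic cell, and endothelial, stromal and epithelial lists made the split. Low levels of their genes in single-lineage cells follow from it and do not test it. The part of these transcripts in the results was not tested.

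Libraries held 8676 to 12362 barcodes and 55361477 to 115225284 UMIs. Library pairs shared 20 to 35 barcode sequences, and 1 CD8 T cell barcode was shared. The sex marks of single-lineage cells did not match across groups. Cells with Xist and no Y-linked UMI numbered 69 and 48 in KO LPS, which also held 49 and 24 cells with Y-linked UMIs alone, and 77 and 69 in WT LPS. The KO vehicle library held 373 Xist-only cells, and the WT vehicle library 206 cells with Y-linked UMIs alone. The LPS comparison, the genotype comparison and the difference in response were therefore repeated with KO LPS cells restricted to Xist-only ones; the shares and the comparisons with NK and CD4 T cells were not. Sex cannot be told apart from genotype among the vehicle libraries, or from treatment in WT. Nos1 had 0 UMIs in CD8 T cells of every library, so its deletion could not be checked in them.

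CD8 T cells were a smaller share of barcodes after LPS. They made up 2.15% and 2.10% of passing barcodes in KO LPS, 1.31% and 1.12% in WT LPS, 7.18% in KO vehicle and 6.66% in WT vehicle. Mean shares were 1.67% with LPS and 6.92% with vehicle, a difference of -5.25 percentage points. Every LPS library lay below both vehicle libraries (two-sided exact permutation test, p = 0.133, the smallest that the 15 splits of 6 libraries allow). With neutrophil-rich barcodes left out of the denominator, the shares were 2.74% to 4.14% with LPS and 7.24% to 7.92% with vehicle. In a share, fewer CD8 T cells and more cells of other classes cannot be told apart. The genes of the rule Cd3d and Cd8b1 were also lower with LPS. T cells gated without Cd4 and Cd8 UMIs numbered 243 and 209 in KO LPS and 143 and 169 in WT LPS. They numbered 620 in KO vehicle and 590 in WT vehicle. How far lower levels of the rule's genes took cells out of the share was not tested.

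Among T cells gated by CD4 or CD8, the CD8 part was larger after LPS. It was 76.6% and 81.5% in KO LPS, 81.0% and 78.9% in WT LPS, 56.9% in KO vehicle and 70.1% in WT vehicle. The difference of means was 16.0 percentage points (two-sided exact permutation test, p = 0.133). With every barcode thinned to 1500 UMIs before gating it was 5.42 points (exact p = 0.267). The shift was thus smaller at equal depth, and the libraries then overlapped.

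**Figure D1:**
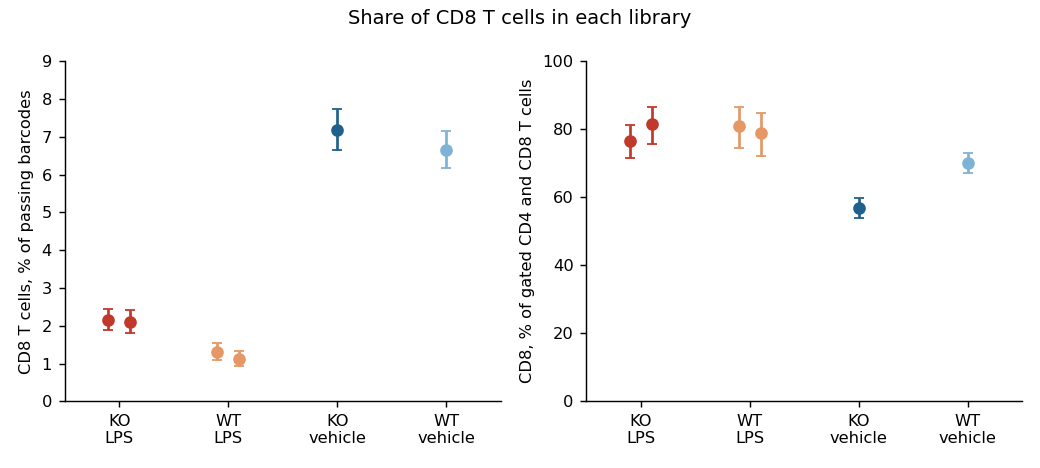
CD8 T cells as a percentage of passing barcodes (left) and of gated CD4 and CD8 T cells together (right), 1 point per library with its 95% binomial interval, for KO LPS, WT LPS, KO vehicle and WT vehicle. The 4 LPS libraries lie at 1.12% to 2.15% in the left panel, below both vehicle libraries at 6.66% and 7.18%.

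LPS changed a large part of the CD8 T cell transcriptome. UMIs were summed per library and tested by the quasi-likelihood method of edgeR, with p-values adjusted by Benjamini-Hochberg and a threshold of 0.05. In all gated cells 1715 genes were higher and 1268 lower with LPS among 10401 tested, so 28.7% of all tested genes were called (16.5% higher, 12.2% lower). In single-lineage cells 1298 were higher and 1205 lower among 7827 (32.0% called, 16.6% higher and 15.4% lower). Of these, 1112 higher and 874 lower genes were called in both, which is 85.7% and 72.5% of the single-lineage calls. All 4 LPS libraries lay above both vehicle libraries for 20.4% of the genes tested in single-lineage cells and below both for 22.5%. The median change over all tested genes was -0.03 on the log2 scale in all gated cells and -0.04 in single-lineage cells. Against this background, gene lists chosen with earlier results of these data known are described by their counts and medians. These calls rest on 2 residual degrees of freedom and 2 vehicle libraries, and without KO LPS replicate 2 the count in all gated cells was 1332 in place of 2983 (2541 at most and 2169 at least in single-lineage cells when any 1 LPS library was left out).

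**Figure D2:**
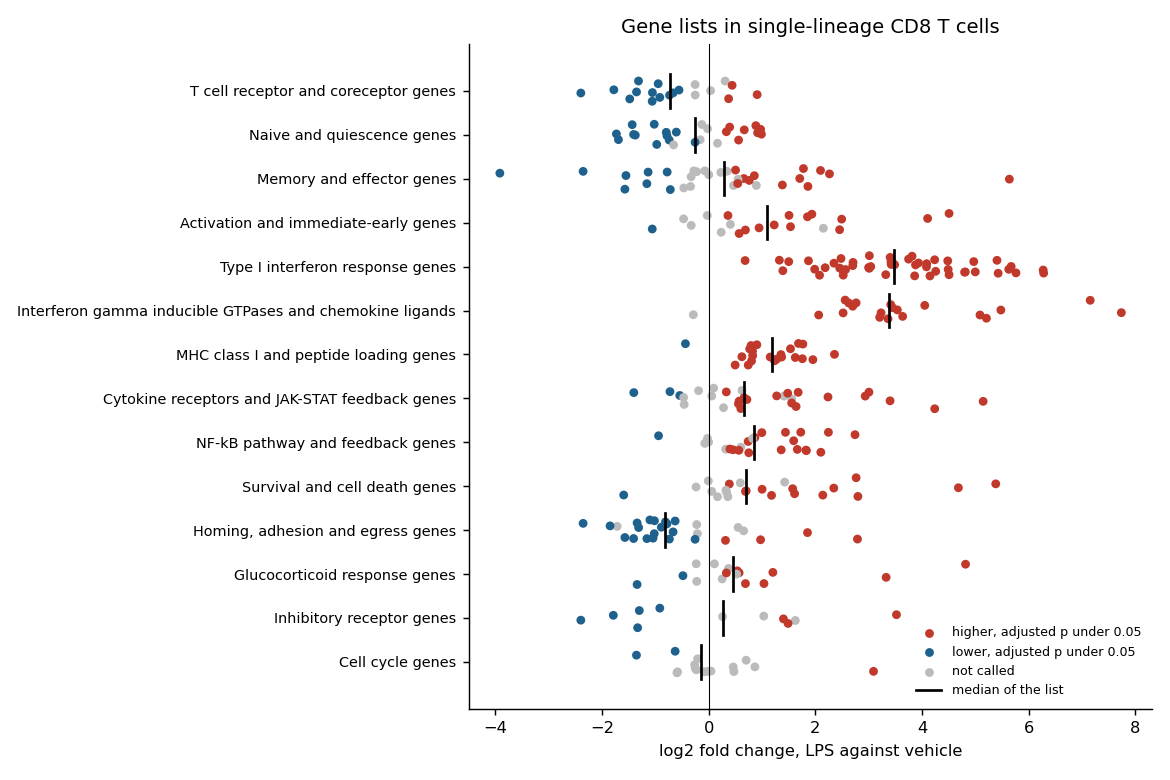
Log2 change with LPS against vehicle of each tested gene in 14 gene lists, single-lineage CD8 T cells; red points are higher and blue points lower at an adjusted p under 0.05, grey points are not called, and black bars are list medians. The type I interferon and interferon gamma inducible lists have medians of 3.48 and 3.39, while the T cell receptor and homing lists have medians of -0.73 and -0.81.

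Interferon-stimulated genes rose together with LPS. Of 51 tested type I interferon response genes, 50 rose and 0 fell in all gated cells, with a median log2 change of 3.33; in single-lineage cells 50 of 50 rose, with a median of 3.48. Ifit3, an antiviral RNA-binding protein, stood at 1046 and 1068 CPM in KO LPS, 1150 and 1174 in WT LPS, 34.1 in KO vehicle and 12.1 in WT vehicle. Its log2 change was 5.71 ± 0.16 (SE, adjusted p = 1.7e-07) in all gated cells and 5.76 ± 0.15 (adjusted p = 1.8e-18) in single-lineage cells, and no LPS library came near a vehicle one. Isg20, an exonuclease that degrades viral RNA, had 863 and 882 CPM in KO LPS, 1096 and 1288 in WT LPS, 25.2 in KO vehicle and 16.7 in WT vehicle. Slfn5 of the Schlafen family and Irf7, the transcription factor that amplifies interferon production, rose by 4.64 and 4.36 on the log2 scale in all gated cells and by 4.97 and 3.93 in single-lineage cells. Oas2, which makes the activator of an antiviral RNase, rose by 4.82 and 4.81, and Usp18, which removes ISG15 and restrains interferon signalling, by 4.70 and 4.51. In cells thinned to 1500 UMIs, Ifit3 was found in 67.2% to 74.8% of single-lineage CD8 T cells with LPS and in 2.31% to 4.41% with vehicle.

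Isg15 and Cxcl10 also rose, but stood below their level in the whole library. Isg15, a ubiquitin-like protein, had 1580 and 1087 CPM in KO LPS, 2197 and 2507 in WT LPS, 65.5 in KO vehicle and 25.9 in WT vehicle, a log2 change of 5.76 in all gated cells and 5.43 in single-lineage cells. Its LPS level was 0.42 to 0.50 of that over all barcodes. Cxcl10, a chemokine that draws CXCR3-bearing lymphocytes, changed by 8.50 and 7.74, with 66.6% of its LPS UMIs in mixed-lineage barcodes and a level of 0.31 to 0.448 of the library's in single-lineage cells. Ifit3, by contrast, stood at 1.07 to 1.45 of its library level, and Gzmb at 2.84 to 5.09. How much of the Isg15 and Cxcl10 signal was free RNA was not tested.

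The guanylate-binding proteins and related GTPases, which attack vacuoles of intracellular microbes and are classically raised by interferon gamma, rose as widely. Of 21 tested, 18 rose and 0 fell in all gated cells (median 3.26); in single-lineage cells 19 of 20 rose (median 3.39), and Cd74, the invariant chain, was the one not called. Gbp2 stood at 1426 and 1318 CPM in KO LPS, 2169 and 2123 in WT LPS, 49.3 in KO vehicle and 43.7 in WT vehicle (log2 5.22 ± 0.13, adjusted p = 1.2e-07, and 5.21 ± 0.13, adjusted p = 1.7e-18). Both WT LPS libraries lay above both KO LPS libraries. All 4 lay above the vehicle libraries, which the rule that named Gbp2 required. Gbp5, which promotes inflammasome assembly, changed by 5.23 and 5.09, Gbp7 by 3.26 and 3.41, and Iigp1, an immunity-related GTPase, by 5.40 and 5.48. Irf1, the transcription factor that drives many of these genes, stood at 550 to 562.5 CPM in the 4 LPS libraries, 109 in KO vehicle and 81.0 in WT vehicle, and rose by 2.41 and 2.56. Serpina3g, a protease inhibitor of activated T cells, rose by 4.89 and 4.76.

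The start regions of these genes are printed because their letters can be set beside the rise. Each window runs from 250 bases before to 50 bases after the start of the gene and comes from RefSeq on build GRCm38.p6. It is written 5′ to 3′ in the direction of the gene, in lower case, with capitals for the motif GAAA, any 2 bases, GAAA on either strand (TTTC, any 2 bases, TTTC where it is on the reverse strand), the core of the interferon-stimulated response element. Ifit3 (chr19:34583279-34583578, plus strand) has 2 matches on the reverse strand. Isg15 (chr4:156200769-156201068, minus strand) has 3 overlapping ones on the forward strand, Gbp2 (chr3:142620413-142620712, plus strand) has 1 on the reverse strand, and Gzmb (chr14:56262285-56262584, minus strand) has 0. The windows of Isg20 and Irf7, not printed, hold 0 matches, and that of Gzma holds 1.
Ifit3: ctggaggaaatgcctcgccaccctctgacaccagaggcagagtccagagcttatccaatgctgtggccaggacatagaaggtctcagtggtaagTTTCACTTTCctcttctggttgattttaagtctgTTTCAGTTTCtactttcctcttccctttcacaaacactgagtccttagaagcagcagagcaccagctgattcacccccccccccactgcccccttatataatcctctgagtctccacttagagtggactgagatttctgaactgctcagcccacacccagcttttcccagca
Isg15: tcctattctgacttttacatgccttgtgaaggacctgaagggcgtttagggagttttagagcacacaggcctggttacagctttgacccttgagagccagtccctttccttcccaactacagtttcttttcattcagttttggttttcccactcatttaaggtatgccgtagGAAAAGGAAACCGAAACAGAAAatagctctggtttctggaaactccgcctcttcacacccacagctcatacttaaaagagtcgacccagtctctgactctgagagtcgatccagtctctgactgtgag
Gbp2: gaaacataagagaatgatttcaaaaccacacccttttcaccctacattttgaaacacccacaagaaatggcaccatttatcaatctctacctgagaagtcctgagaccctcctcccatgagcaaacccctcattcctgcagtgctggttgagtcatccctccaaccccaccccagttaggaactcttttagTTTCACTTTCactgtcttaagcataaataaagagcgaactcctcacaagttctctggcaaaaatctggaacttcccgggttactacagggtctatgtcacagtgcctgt
Gzmb: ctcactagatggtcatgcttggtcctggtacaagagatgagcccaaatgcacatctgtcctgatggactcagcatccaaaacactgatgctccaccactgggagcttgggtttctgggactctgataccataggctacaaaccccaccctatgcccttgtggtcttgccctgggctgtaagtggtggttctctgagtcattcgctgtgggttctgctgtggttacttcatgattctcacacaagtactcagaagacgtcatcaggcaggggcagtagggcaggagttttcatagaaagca
Of 27025 genes with such a window, 3.99% hold the motif, and of 6257 tested in single-lineage cells 4.33%. It is present in 22 of 39 type I interferon response genes with a window (56.4%), in 10 of 14 interferon gamma inducible ones (71.4%), in 5 of 18 MHC class I genes (27.8%), in 2 of 27 memory and effector genes (7.41%) and in 1 of 21 naive genes (4.76%). A match describes these letters in this window and no more.

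**Figure D3:**
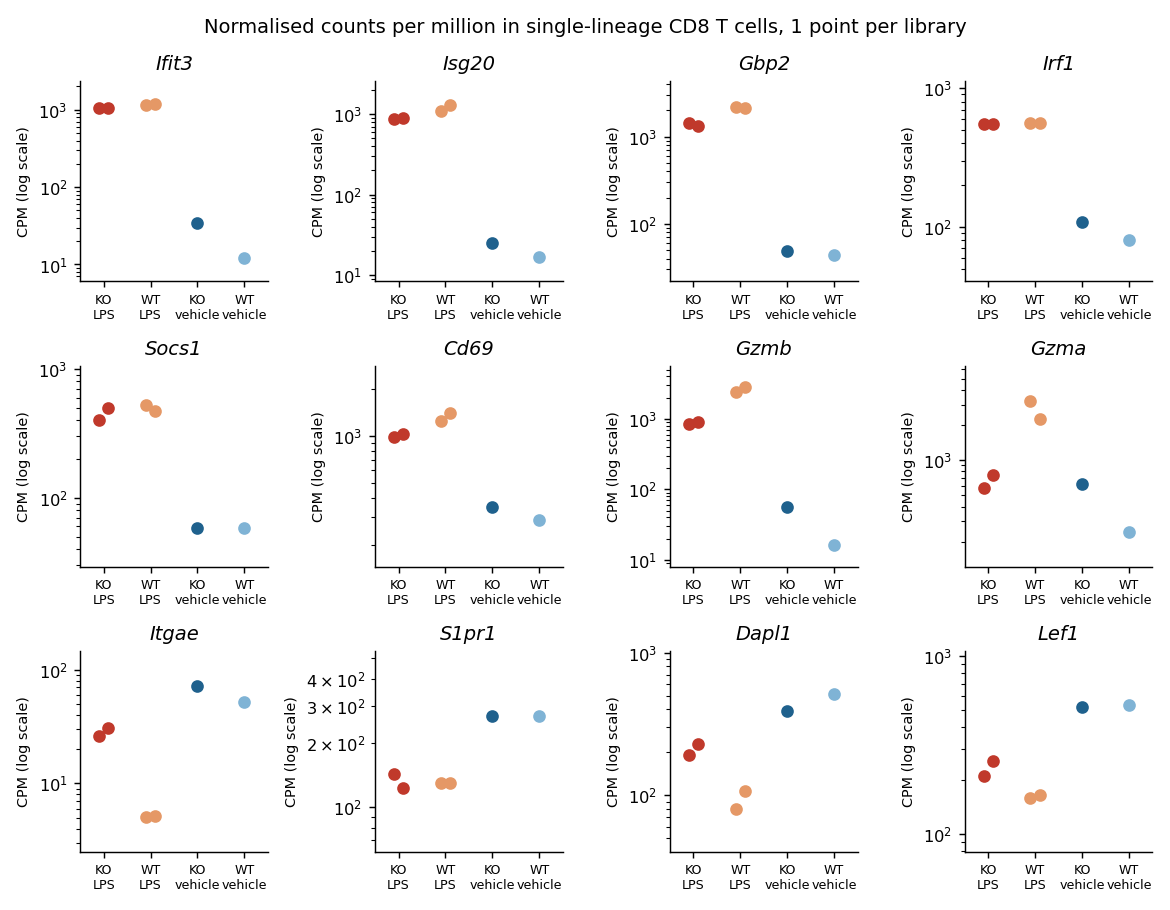
Normalised CPM (log scale) of 12 genes in single-lineage CD8 T cells, 1 point per library, with KO LPS, WT LPS, KO vehicle and WT vehicle from left to right. Ifit3, Isg20, Gbp2, Irf1, Socs1, Cd69 and Gzmb are higher in all 4 LPS libraries than in both vehicle libraries, Gzma has a KO vehicle point (624 CPM) among the LPS points, and Itgae, S1pr1, Dapl1 and Lef1 are lower in all 4.

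Antigen presentation by MHC class I rose more modestly. Of 22 tested genes, 21 rose and 0 fell in all gated cells, with a median of 1.24; in single-lineage cells 21 rose and 1, the chaperone Calr, fell (log2 -0.43 ± 0.13, adjusted p = 0.0099), with a median of 1.20. B2m, the light chain shared by all class I molecules, had 2540 and 2153 CPM in KO LPS, 3747 and 3873 in WT LPS, 1559 in KO vehicle and 1640 in WT vehicle (log2 0.90 ± 0.11, adjusted p = 0.00034, and 0.90 ± 0.09). H2-T23, the Qa-1 molecule seen by NKG2A, changed by 1.52 and 1.69, Tap1, a subunit of the peptide transporter, by 1.94 and 1.77, Tapbp, the tapasin that loads peptide, by 2.05 and 2.36, and H2-T22 by 1.90 and 1.95. Psmb8, an immunoproteasome subunit, changed by 1.27 and 1.28.

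Feedback inhibitors of cytokine signalling rose, and the interferon receptor chains changed by less. Of the cytokine receptor and JAK-STAT list, 20 of 31 rose and 1 fell in all gated cells (median 1.10), and 17 of 29 rose and 3 (Il6ra, Jak1, Ptpn6) fell in single-lineage cells (median 0.66). Socs1 stood at 403 and 494 CPM in KO LPS, 525 and 472 in WT LPS and 58.6 in both vehicle libraries (log2 3.02 ± 0.13, adjusted p = 6.7e-07, and 3.01 ± 0.14, adjusted p = 7.4e-14). The KO LPS and WT LPS libraries overlapped for it. Socs3, which blocks gp130 receptors, had 227 and 312 CPM in KO LPS, 238 and 288 in WT LPS, 36.1 in KO vehicle and 32.2 in WT vehicle, and rose by 3.48 and 2.94. Cish, the inhibitor of STAT5 signalling, rose by 3.24 and 3.40, and Bcl3, an IkB-like coactivator, by 3.90 and 4.24. Il12rb2, the signalling chain of the interleukin 12 receptor, had 40.3 and 72.3 CPM in KO LPS, 75.3 and 75.2 in WT LPS, 0.776 in KO vehicle and 3.45 in WT vehicle (log2 3.18 ± 0.27 and 5.15 ± 0.38). Il2ra, the high-affinity interleukin 2 receptor chain, had 30.7 and 33.1 CPM in KO LPS, 73.6 and 130 in WT LPS, 4.65 in KO vehicle and 1.15 in WT vehicle. Of the interferon receptor chains, Ifnar2 rose in both sets (log2 0.61 and 0.56, adjusted p = 0.016 and 0.028) and Ifngr1 was called in single-lineage cells alone (log2 0.18 and 0.33, adjusted p = 0.21 and 0.046). Ifnar1 (log2 0.17 and 0.09, adjusted p = 0.42 and 0.7) and Ifngr2 (log2 0.39 and -0.47, adjusted p = 0.13 and 0.22) were not called.

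Genes of NF-kB feedback rose, some of them less when mixed-lineage barcodes were left out. Of 24 tested genes, 21 rose and 1 fell in all gated cells (median 1.44), and in single-lineage cells 17 rose and 1 fell (median 0.85); Ltb, the membrane partner of lymphotoxin, was the one that fell (log2 -0.94 ± 0.11 in single-lineage cells, adjusted p = 4.5e-07). Nfkbia, the inhibitor that returns NF-kB to the cytoplasm, had 634 and 428 CPM in KO LPS, 698 and 837 in WT LPS, 206 in KO vehicle and 182 in WT vehicle. It rose by 2.61 in all gated cells and 1.73 in single-lineage cells. Icam1, an adhesion ligand, rose by 2.54 and 1.66, Nfkbiz, a nuclear IkB protein, by 2.17 and 2.25, and Tnfaip3, the ubiquitin-editing inhibitor A20, by 1.52 and 0.40. Myeloid genes behaved differently: 98.4% of LPS UMIs of the chemokine Ccl22, 99.0% of those of the cholesterol hydroxylase Ch25h and 91.8% of those of Bcl2a1b sat in mixed-lineage barcodes, and Ccl22 was not called in single-lineage cells (log2 2.65, adjusted p = 0.071).

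Early activation genes rose. From this list 18 of 24 rose and 2 fell in all gated cells (median 1.17), and in single-lineage cells 13 of 20 rose and Fosb fell (median 1.09). Cd69, a membrane protein that keeps lymphocytes in tissue by removing the egress receptor S1PR1, stood at 979 and 1021 CPM in KO LPS, 1245 and 1397 in WT LPS, 348 in KO vehicle and 290 in WT vehicle (log2 1.78 ± 0.10, adjusted p = 2.6e-06, and 1.85 ± 0.10, adjusted p = 1.6e-12). Cd69 UMIs were found in 66.7% to 81.0% of thinned single-lineage cells with LPS and in 29.8% to 37.7% with vehicle. Myc, the growth regulator, had 133 and 173.5 CPM in KO LPS, 199 and 194 in WT LPS, 25.2 in KO vehicle and 38.5 in WT vehicle, and rose by 2.06 and 2.46. Gadd45g, a stress-induced p38 activator, had 216 and 171 CPM in KO LPS, 199 and 184 in WT LPS, 7.37 in KO vehicle and 4.02 in WT vehicle, and rose by 2.46 and 5.14.

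Memory and effector genes split. Among all gated cells 13 of 33 rose and 7 fell (median 0.29), and in single-lineage cells 12 of 32 rose and 8 fell (median 0.29). Those that rose in single-lineage cells were Gzmb, Gzma, Gzmk, Eomes, Tbx21, Ifng, Fasl, Il2rb, Il18rap, Ccl5, Id2 and Ly6c2. Those that fell were Itgae, Cxcr3, Cxcr6, Xcl1, Klrd1, Prf1, Gzmm and Ctla2a. Gzmb, the caspase-activating granzyme, had 835 and 895 CPM in KO LPS, 2425 and 2794 in WT LPS, 55.8 in KO vehicle and 16.1 in WT vehicle. Its log2 change was 5.60 ± 0.19 (adjusted p = 3.2e-07) in all gated cells and 5.64 ± 0.14 (adjusted p = 1.7e-18) in single-lineage cells. Eomes, a T-box factor of memory CD8 T cells, had 94.1 and 103 CPM in KO LPS, 122 and 168 in WT LPS, 29.1 in KO vehicle and 25.9 in WT vehicle, and rose by 2.28 and 2.10. Ifng itself had 35.5 and 31.0 CPM in KO LPS, 38.5 and 18.1 in WT LPS, 4.65 in KO vehicle and 9.19 in WT vehicle (log2 2.22 ± 0.37, adjusted p = 0.0025, and 2.27 ± 0.34, adjusted p = 1.2e-05). Its levels were low in every library, though all 4 LPS libraries lay above both vehicle ones. Ccl5, a chemokine stored by memory cells, rose by 1.22 in all gated cells and by 0.55 ± 0.12 (adjusted p = 0.0011) in single-lineage cells, where KO LPS replicate 1 (2192 CPM) lay below both vehicle libraries (2434 in KO and 2462 in WT). Prf1, the pore-forming perforin, had a log2 change of -0.52 (adjusted p = 0.13) in all gated cells and -0.72 (adjusted p = 0.026) in single-lineage cells.

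Granzyme transcripts sat in a minority of cells. In thinned single-lineage cells, Gzmb UMIs were found in 22.2% and 19.0% of cells in KO LPS, 29.9% and 26.0% in WT LPS, 4.61% in KO vehicle and 2.31% in WT vehicle (without thinning 29.1% and 23.8%, 41.1% and 36.0%, 7.19% and 3.04%). In B cells, which should lack Gzmb, it was found in 0.809% to 2.22% with LPS and 0.120% to 0.466% with vehicle. The mean was 4.60 and 3.44 Gzmb UMIs per cell in KO LPS, 13.5 and 10.8 in WT LPS, 0.287 in KO vehicle and 0.0532 in WT vehicle, and the highest single cell had 65 and 65, 189 and 179, 21 and 5 UMIs in the same order of libraries. A larger share of cells had Gzmb with LPS, and the highest single cells held more of it. From a share, more cells with Gzmb and fewer cells without it cannot be told apart. Gzma, the other main granzyme, was found in 18.0% and 19.0% of thinned cells in KO LPS, 21.5% and 20.0% in WT LPS, 9.82% in KO vehicle and 4.04% in WT vehicle. A single WT LPS cell held 670 Gzma UMIs, 21.0% of those of both WT LPS libraries.

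Naive-state genes moved in both directions. The list counted 6 of 25 that rose and 9 that fell in all gated cells (median -0.27), and in single-lineage cells 8 rose and 12 fell (median -0.25). Lef1 had 212 and 258 CPM in KO LPS, 159 and 166 in WT LPS, 514 in KO vehicle and 531.5 in WT vehicle (log2 -1.55 ± 0.10, adjusted p = 9.6e-06, and -1.43 ± 0.12, adjusted p = 1.1e-09). Dapl1, a marker of naive and stem-like CD8 T cells, had 193 and 229 CPM in KO LPS, 80.3 and 106 in WT LPS, 387 in KO vehicle and 511 in WT vehicle, and fell by 1.73 and by 1.69 on the log2 scale. Every LPS library was below both vehicle libraries for these markers, and the WT LPS libraries were the lowest. Tcf7, the partner of Lef1, had 373.5 and 351 CPM in KO LPS, 201 and 161 in WT LPS, 415 in KO vehicle and 482 in WT vehicle (log2 -0.82 and -0.79), and Klf3 changed by -1.39 and -1.73. Slfn2, which maintains quiescence and is itself interferon-inducible, rose by 1.45 and 0.89. Il7r, the receptor that keeps naive cells alive, was called in single-lineage cells (log2 0.33, adjusted p = 0.012) and not in all gated cells (0.27, adjusted p = 0.16), and the WT vehicle library (857 CPM) overlapped the LPS ones (734 to 917 CPM).

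More genes of circulation fell than rose. In the homing, adhesion and egress list 4 of 28 rose and 13 fell in all gated cells (median -0.46), and 4 of 27 rose and 18 fell in single-lineage cells (median -0.81); Cd69 and Rap1b were among those that rose. S1pr1, which guides cells out of lymphoid tissue, had 143 and 124 CPM in KO LPS, 130.5 and 130 in WT LPS, 269.5 in KO vehicle and 269 in WT vehicle. It was called in single-lineage cells (log2 -1.02 ± 0.13, adjusted p = 8.4e-07) and not in all gated cells (-0.53 ± 0.18, adjusted p = 0.061). Ccr7, the receptor for lymph node chemokines, changed by -0.40 and -0.78. Itgae, the CD103 chain of tissue-resident cells, had 25.9 and 31.0 CPM in KO LPS, 5.02 and 5.18 in WT LPS, 72.5 in KO vehicle and 51.7 in WT vehicle (log2 -2.46 and -2.35), and its partner Itgb7 changed by -1.85 in both. Cxcr3, the receptor for Cxcl10, changed by -1.87 and -1.57. Klf2, the factor that maintains S1pr1, was called in single-lineage cells (-0.25, adjusted p = 0.025) and not in all gated cells (-0.27, adjusted p = 0.067).

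T cell receptor components and coreceptors were lower with LPS. In both sets of cells 3 of 19 tested genes rose (Ptprc and Fyn among them) and 12 fell, with a median of -0.94 in all gated cells and -0.73 in single-lineage cells. Cd5, which sets the threshold of receptor signalling, had 18.2 and 31.0 CPM in KO LPS, 11.7 and 18.1 in WT LPS, 86.1 in KO vehicle and 105 in WT vehicle (log2 -2.49 ± 0.18, adjusted p = 1.6e-05, and -2.40 ± 0.22). Cd27, a costimulator of the TNF receptor family, changed by -1.88 and -1.78, Ptprcap, which binds CD45, by -1.43 and -1.48, Trbc1, a receptor constant region, by -1.09 and -0.95, and the signalling proteins Lat and Lck by -1.16 and -1.06 and by -1.15 and -1.05. Trac, the other constant region, was not called (-0.36, adjusted p = 0.068, and -0.25, adjusted p = 0.11). Thy1, a T cell surface protein, had 97.0 and 72.3 CPM in KO LPS, 45.2 and 31.1 in WT LPS, 248 in KO vehicle and 277 in WT vehicle.

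The genes with the steepest falls included cytoskeletal and signalling proteins. Rflnb, an actin-regulating protein, had 24.96 and 26.9 CPM in KO LPS, 10.0 and 13.0 in WT LPS, 133 in KO vehicle and 149 in WT vehicle (log2 -3.16 in all gated cells and -3.04 in single-lineage cells). Kif21b, a kinesin, changed by -2.65 and -3.04, Bcl9l, a coactivator of beta-catenin, by -2.63 and -2.79, Fam78a by -2.54 and -2.58, Fam189b by -2.52 and -2.48, Lbh by -2.46 and -2.56 and the kinase Tnik by -2.21 and -2.35. The rule that named these genes kept only genes lower in each LPS library than in either vehicle library, so that order was fixed by the choice. Adcy7, an adenylate cyclase, Tspan32 and Arl5c were called in single-lineage cells at -2.95, -2.99 and -3.36. Wfdc2 and Sftpa1, airway and alveolar epithelial genes, headed the falls in all gated cells, and 98.9% and 99.1% of their vehicle UMIs sat in mixed-lineage barcodes.

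Survival and death genes, glucocorticoid targets, inhibitory receptors and cell cycle genes gave smaller or mixed changes. Of the survival and cell death list, 14 of 24 rose and 1 fell in all gated cells (median 0.71), and 13 of 23 rose and 1 (Bbc3, a BH3-only killer protein) fell in single-lineage cells (median 0.70). Fas, the death receptor, had 168 and 167 CPM in KO LPS, 159 and 194 in WT LPS, 26.0 in KO vehicle and 24.1 in WT vehicle and rose by 2.73 and 2.77. The inflammatory caspase Casp4 rose by 4.16 and 4.68, Casp8 by 1.75 and 2.14, and the survival protein Mcl1 by 0.58 and 0.70. Of glucocorticoid response genes, 10 of 17 rose and 1 fell (median 0.44), and in single-lineage cells 8 of 16 rose and 2 fell (median 0.45). Their largest members were mostly outside single-lineage cells: 94.8% of Mt1, 94.1% of Mt2, 87.5% of Dusp1 and 84.7% of Fkbp5 UMIs with LPS came from mixed-lineage barcodes, and Tsc22d3, a classical target, was not called (-0.15 and -0.23). Among inhibitory receptors 4 of 15 rose and 6 fell in all gated cells, and 3 of 11 rose and 5 fell in single-lineage cells. The ligand PD-L1 (Cd274) rose by 2.60 and 3.52, Btla by 1.55 and 1.49 and Ctla4 by 1.28 and 1.40, while Vsir, a checkpoint protein of resting T cells, changed by -1.23 and -1.79. In the cell cycle list 0 of 17 rose and 2 fell (Stmn1 and Top2a) in all gated cells, and 1 of 16 rose (Ccnb2) and 2 fell (Stmn1 and Rrm2) in single-lineage cells. Top2a, a topoisomerase of dividing cells, gave -0.72 in all gated cells and 0.87 (adjusted p = 0.081) in single-lineage cells.

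The KO LPS libraries were next set against the WT LPS libraries. Among all gated cells 20 genes were higher (0.192%) and 36 lower (0.346%) in KO LPS, in all 0.538% of 10401 tested. In single-lineage cells 30 were higher and 68 lower (0.383% and 0.869%, in all 1.25% of 7827), of which 12 and 26 were called in both. The count of 56 in all gated cells was 0 without KO LPS replicate 2, 13 without WT LPS replicate 2 and 159 without KO LPS replicate 1, and that of 98 in single-lineage cells was 89 to 162. Of the 30 higher genes 10 are mitochondrial and 2 are sex marks, and of the 68 lower genes 11 are interferon-stimulated, 9 ribosomal and 6 from the memory and effector list. With KO LPS cells restricted to Xist-only ones, 15 of the 30 and 30 of the 68 remained called. KO LPS members had a median mitochondrial share of 3.71% and 4.01%, against 2.31% and 2.46% in WT LPS, and the part of that difference in the calls was not tested.

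Granzymes were lower in KO LPS. Gzma had 572 and 750 CPM in KO LPS and 3199 and 2271 in WT LPS. Gzmb had 835 and 895 in KO LPS and 2425 and 2794 in WT LPS. Neither gene overlapped between the groups, which the rule that named both required. Among all genes tested in single-lineage cells 21.5% were higher and 21.1% lower in KO LPS without overlap. In WT LPS replicate 1 a single cell held 670 of the 1912 Gzma UMIs (35.0%), and without them its level was 2078 CPM, still above both KO LPS libraries. Gzma differed by -2.09 ± 0.16 on the log2 scale in all gated cells (adjusted p = 0.0061) and by -2.07 ± 0.15 in single-lineage cells (adjusted p = 5.4e-09). Gzmb differed by -1.62 ± 0.16 (adjusted p = 0.0095) and -1.59 ± 0.11 (adjusted p = 5.4e-09). In single-lineage cells with Xist-only KO LPS cells the differences were -1.79 for Gzma (adjusted p = 9.6e-10) and -1.23 for Gzmb (adjusted p = 2.2e-09). In all gated cells with the same restriction, 3 genes were called higher and 1 lower in KO LPS, and neither Gzma nor Gzmb was called. Klrk1, the activating receptor NKG2D, differed by -1.31 (adjusted p = 0.01) in single-lineage cells and -1.10 (adjusted p = 0.1) in all gated cells. Id2, a regulator of effector fate, differed by -0.82 (adjusted p = 0.0082) and -0.68 (adjusted p = 0.21) in the same cells. Ccl5 differed by -0.92 (adjusted p = 0.012) in all gated cells and -0.69 (adjusted p = 0.0094) in single-lineage cells, but not called with Xist-only cells (-0.41, adjusted p = 0.17). Il2ra differed by -1.97 (adjusted p = 0.023) and -1.63 (adjusted p = 0.0052), and not called with Xist-only cells (-1.08, adjusted p = 0.15). Over the memory and effector list 0 of 33 rose and 3 fell in all gated cells (median -0.40), and in single-lineage cells 1 of 32 rose (Itgae) and 6 fell, with a median of -0.46 beside 0.01 over all genes. Il22 was also called, with 1 and 0 UMIs in KO LPS against 188 and 23 in WT LPS, but a single WT LPS barcode held 188 of them.

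A part of the interferon-stimulated genes was lower in KO LPS, and fewer were called with KO LPS cells restricted to Xist-only ones. That restriction kept 69 of 189 and 48 of 126 single-lineage KO LPS cells and left the WT LPS cells as they were. Sex, the number of cells and the choice of cells with an Xist UMI therefore cannot be told apart in it. Of the type I interferon response genes, 0 of 51 rose and 8 fell in all gated cells (median -0.42). In single-lineage cells 0 of 50 rose and 8 fell, 43 had a negative change and the median was -0.29. With Xist-only KO LPS cells 1 rose and 3 fell, 29 of 50 were higher and the median was 0.08. Usp18 differed by -0.95 in all gated cells (adjusted p = 0.033), by -0.85 in single-lineage cells (adjusted p = 0.0064) and by -0.76 with Xist-only cells (adjusted p = 0.038). Gbp2 differed by -0.75 (adjusted p = 0.034), -0.64 (adjusted p = 0.0013) and -0.45 (adjusted p = 0.038), and B2m by -0.81 (adjusted p = 0.033), -0.70 (adjusted p = 0.00024) and -0.60 (adjusted p = 5.8e-05). These 3 stayed called in single-lineage cells with Xist-only KO LPS cells, but were not called in all gated cells with that restriction. Isg15 gave -0.98 (adjusted p = 0.036), -0.80 (adjusted p = 0.0015) and -0.36 (adjusted p = 0.15) in the same 3 sets. Cxcl10 gave -0.96, -0.65 and 0.06 (adjusted p = 0.011, 0.018 and 0.92). Ifit3 was not called in either set of cells (-0.38, adjusted p = 0.26, and -0.14, adjusted p = 0.68), nor was Socs1 (-0.37, adjusted p = 0.25, and -0.17, adjusted p = 0.68). Oas1a, which like Nos1 lies on chromosome 5, had 16.3 and 10.3 CPM in KO LPS and 61.9 and 62.2 in WT LPS, with differences of -1.83, -2.12 and -2.29 (adjusted p = 0.035, 0.0045 and 0.042).

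A few naive-state genes stood higher in KO LPS. Dapl1 had 193 and 229 CPM in KO LPS and 80.3 and 106 in WT LPS, a difference of 0.91 in all gated cells (adjusted p = 0.049), 1.19 in single-lineage cells (adjusted p = 0.0013) and 0.87 with Xist-only cells (adjusted p = 0.041). Tcf7 differed by 0.99 in single-lineage cells (adjusted p = 0.0012) but by 0.75 in all gated cells (adjusted p = 0.13) and 0.70 with Xist-only cells (adjusted p = 0.054). Igfbp4, an insulin-like growth factor binding protein of naive T cells, differed by 1.13 (adjusted p = 0.00037), 0.82 (adjusted p = 0.1) and 0.45 (adjusted p = 0.4) in the same 3 sets. Over the naive list 1 of 25 was higher and 0 lower in all gated cells (median 0.16), and 3 of 25 and 0 in single-lineage cells (median 0.13), and Lef1 was not called (0.51, adjusted p = 0.18). Of the activation list 1 of 24 rose and 1 fell in all gated cells (median -0.17), and in single-lineage cells 0 of 20 rose and 5 fell (Il2ra, Dusp2, Tnfrsf9, Fosb and Irf4; median -0.52). Pf4, Klf4, Top2a and Acp5 were among the genes higher in KO LPS in all gated cells (4.89, 1.42, 1.34 and 1.01), and Klf4, Top2a and Acp5 were not called in single-lineage cells (-0.36, 0.95 and 1.11, adjusted p = 0.88, 0.37 and 0.06), where Pf4 had too few counts to be tested. Of the LPS UMIs of Pf4 and Klf4, 98.9% and 92.2% sat in mixed-lineage barcodes. Other genes higher in KO LPS in single-lineage cells were Tet3, a DNA demethylase, with 69.1 and 74.4 CPM in KO LPS and 30.1 and 33.7 in WT LPS, Prkacb, a catalytic subunit of protein kinase A, and Thy1 (log2 1.17, 1.22 and 1.15). None of the 3 was called with Xist-only cells (0.90, 1.10 and 1.06, adjusted p = 0.29, 0.19 and 0.096). Pf4 and Acp5 are genes of platelets or myeloid cells.

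**Figure D4:**
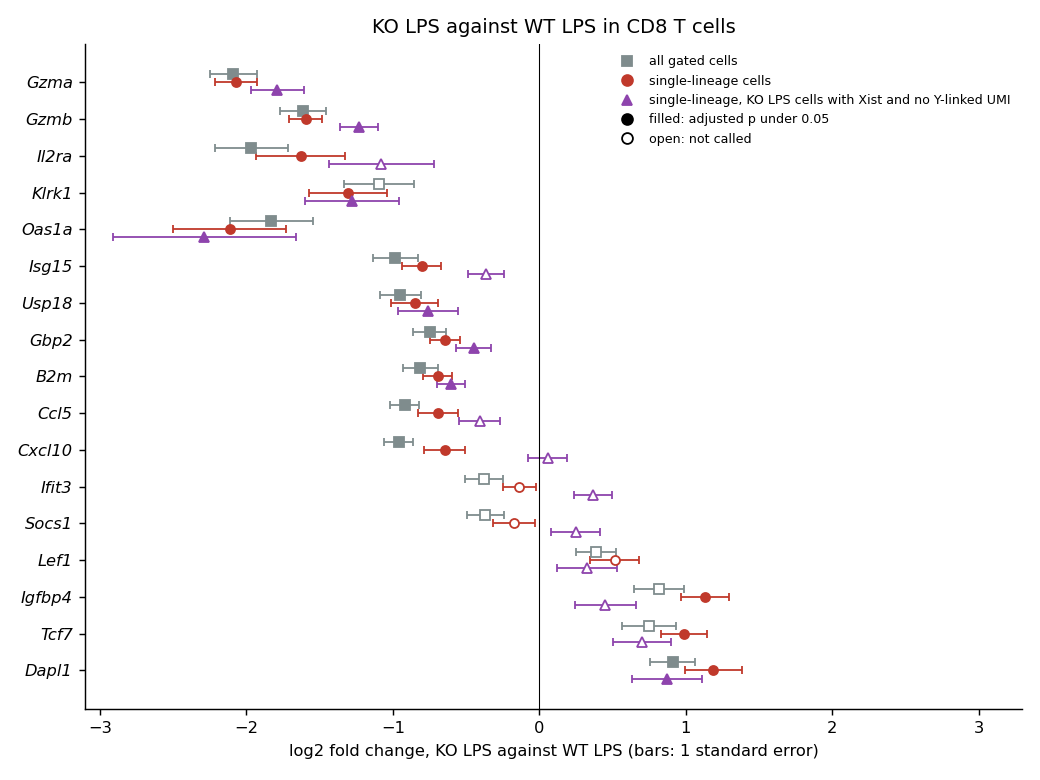
Log2 difference of KO LPS from WT LPS for 17 genes, with bars of 1 standard error, in all gated CD8 T cells (squares), in single-lineage cells (circles) and in single-lineage cells with KO LPS restricted to cells with Xist and no Y-linked UMI (triangles); filled symbols have an adjusted p under 0.05. Gzma and Gzmb lie below 0 and are called in all 3 sets, while Cxcl10 reaches 0.06 in the third.

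Whether the 2 genotypes responded to LPS differently was tested as the difference of responses, where each vehicle group is 1 library. Among all gated cells 9 genes had a larger log2 response in KO (0.0865%) and 13 a smaller one (0.125%), in all 0.212% of 10401, and in single-lineage cells 23 and 30 (0.294% and 0.383%, in all 0.677% of 7827). The 22 calls in all gated cells became 92 without KO LPS replicate 1 and 0 without KO LPS replicate 2, and the 53 in single-lineage cells became 78 to 129. Gzma changed by 0.07 with LPS in KO (adjusted p = 0.85) and by 3.49 in WT in single-lineage cells, a difference of -3.42 (adjusted p = 1e-08); in all gated cells it was -3.73 (adjusted p = 0.00098). Gzmb changed by 3.95 in KO and 7.33 in WT, a difference of -3.38 (adjusted p = 7.3e-08), and -3.45 (adjusted p = 0.0059) in all gated cells. Part of these differences was in the vehicle libraries. Gzma stood at 707 plain CPM in KO vehicle (95% Poisson interval 672.63 to 742.16) and at 244 in WT vehicle (221.61 to 268.65), 2.89 times as high. Gzmb stood at 63.3 and 16.1, 3.93 times as high. The intervals cover counting error only, since each group is a single library. Isg15 (responses 4.36 in KO and 6.50 in WT, difference -2.14, adjusted p = 0.0005) and Ifit3 (4.95 in KO and 6.58 in WT, difference -1.63, adjusted p = 0.011) also rose less in KO, from vehicle levels that were higher in KO. Dapl1 (-0.90 in KO, -2.48 in WT; difference 1.59, adjusted p = 0.0022) and Tcf7 (-0.19 in KO, -1.39 in WT; difference 1.20, adjusted p = 0.01) had responses nearer to 0 in KO. The positive differences with the smallest p were the mitochondrial mt-Nd2 and mt-Co3 (1.28 and 1.11) and Gm42418 (1.08), a gene that overlaps ribosomal RNA. Within a genotype, 837 genes were higher and 576 lower with LPS in KO (10.7% and 7.36%, in all 18.1%), and 1008 and 811 in WT (12.9% and 10.4%, in all 23.2%), in single-lineage cells.

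The vehicle libraries differed in proliferation genes, and in all gated cells also in epithelial genes, with no test, since each is 1 library. In single-lineage cells the summed endothelial, stromal and epithelial list was at 124 plain CPM in KO vehicle and 122 in WT vehicle. By a rule of at least a 2-fold difference and 50 CPM in the higher library, 38 genes were higher and 3 lower in the KO library among 2713 in single-lineage cells (1.4% and 0.111%, in all 1.51%), and 23 and 14 among 3048 in all gated cells (0.755% and 0.459%, in all 1.21%). Histone and mitotic genes were among them in plain CPM: Hist1h2ap had 248 in KO vehicle and 2.87 in WT vehicle, Hist1h1b 468.5 and 47.7, Top2a 123 and 6.32, and Mki67 83.1 and 11.5. The markers of the naive state stood close, with Dapl1 at 439 in KO vehicle and 511 in WT vehicle and Lef1 at 583 and 532. Il7r was at 593 in KO vehicle and 858 in WT vehicle. In all gated cells Scgb1a1, a secretory airway gene, had 19.0 in KO vehicle and 12750 in WT vehicle, where a single mixed-lineage barcode held 45352 of its UMIs.

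NK cells of the same libraries, gated by Ncr1 without Cd3 UMIs (2316 cells), responded differently from CD8 T cells. The interaction of cell type and LPS, fitted with the library as a block, called 86 genes with a higher response in CD8 T cells and 73 with a lower one (0.811% and 0.688%, in all 1.5% of 10608) in all gated cells, and 355 and 211 (4.01% and 2.38%, in all 6.4% of 8848) in single-lineage cells. The count of 159 in all gated cells was 97 and 50 without KO LPS replicate 2 and without WT LPS replicate 2. The response of a cell type is given in single-lineage cells as a difference of mean log2 CPM, while the difference between cell types comes from the fit, so the responses need not subtract to it. Il12rb2 changed by 4.91 in CD8 T cells and 0.87 in NK cells, a difference of 4.10 ± 0.44 (adjusted p = 1.2e-06; all gated cells 2.41, adjusted p = 0.020). NK cells held more of it without LPS, at 92.5 plain CPM in KO vehicle and 96.1 in WT vehicle, against 0.879 and 3.45 in CD8 T cells. Eomes had 94.2 and 100 plain CPM in KO LPS, 112 and 155 in WT LPS, 33.0 in KO vehicle and 25.9 in WT vehicle in CD8 T cells. In NK cells it had 144 and 154 in KO LPS, 84.2 and 109 in WT LPS, 261 in KO vehicle and 299 in WT vehicle. It thus changed in opposite directions in CD8 T cells and NK cells (2.12 and -0.99; difference 3.10 ± 0.28, adjusted p = 8.9e-08; all gated cells 3.40, adjusted p = 0.0030). Ndrg3 likewise changed by 2.03 in CD8 T cells and -2.20 in NK cells (fitted difference 3.37, and 2.66 with adjusted p = 0.013 in all gated cells). Tmem140 changed by 3.58 and 0.49 (fitted difference 3.18, and 1.70 with adjusted p = 0.22 in all gated cells).

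Some interferon gamma inducible GTPases rose more in CD8 T cells than in NK cells. Gbp2 changed by 5.21 in CD8 T cells and 2.87 in NK cells (difference 2.34, adjusted p = 9.9e-06) in single-lineage cells, but the difference was not called in all gated cells (1.42, adjusted p = 0.18). Over that list in single-lineage cells, 8 of 20 genes had a higher response in CD8 T cells and 1, Gbp6, a lower one (median difference 0.84). In all gated cells 2 of 21 (Gbp7 and Gbp8) were higher and 1, Irf8, was lower (median 0.27), and Irf8 was among the 8 higher in single-lineage cells. Over the type I interferon list 7 of 50 were higher and 6 lower in single-lineage cells (median 0.03), and 0 of 51 and 4 in all gated cells (median -0.04). Perforin went the other way: Prf1 changed by -0.67 in CD8 T cells and 1.17 in NK cells (difference -1.84 ± 0.30, adjusted p = 0.00022; all gated cells -1.57, adjusted p = 0.032). The response of Gzmb and Gzma was not called different (0.54, adjusted p = 0.53, and 0.89, adjusted p = 0.22, in single-lineage cells). Jaml, an adhesion molecule, changed by 3.15 in CD8 T cells and 5.47 in NK cells, Tspan13 by 0.88 and 3.58, and Tent5c, an RNA-tailing enzyme, by -1.27 and 2.21, all called different in single-lineage cells. In all gated cells the differences were -1.20, -2.06 and -3.27 (adjusted p = 0.067, 0.005 and 0.068).

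**Figure D5:**
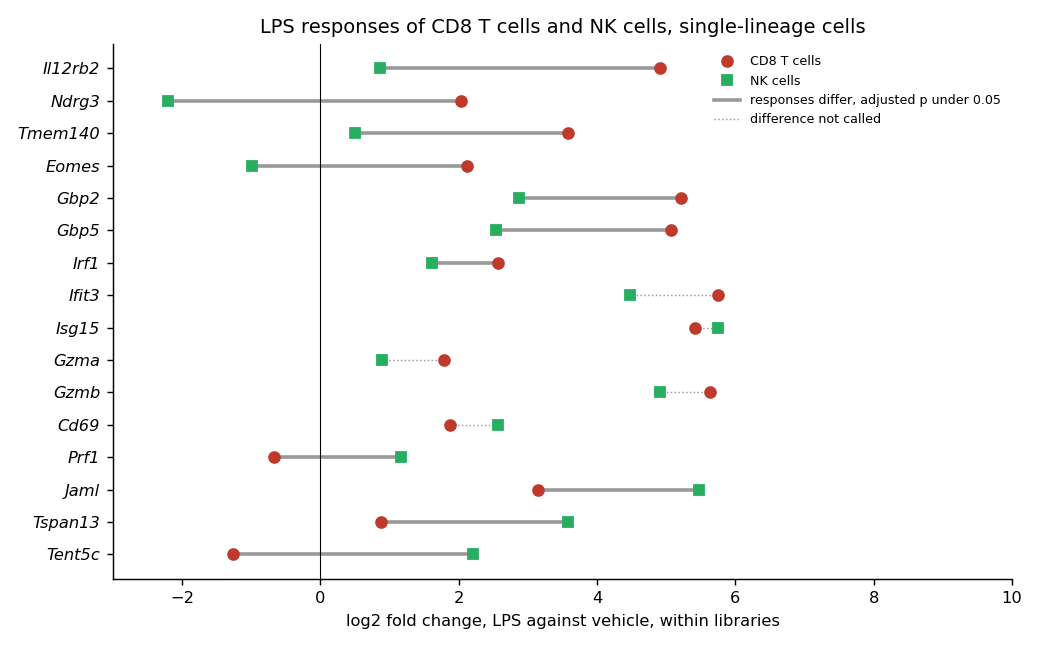
Log2 change with LPS against vehicle of 16 genes in single-lineage CD8 T cells (circles) and NK cells (squares) of the same libraries; thick lines join responses that differ at an adjusted p under 0.05 and dotted lines those not called. Eomes and Ndrg3 have positive changes in CD8 T cells and negative ones in NK cells, and Prf1 has the reverse.

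CD4 T cells (946 cells, 29 to 56 single-lineage cells in each LPS library) had few responses called different from those of CD8 T cells. In all gated cells edgeR called 0 of 10664 genes (0.0%) with a different LPS response, 538 had an unadjusted p under 0.05, and no other tool was run on this comparison; without KO LPS replicate 1 or 2, 121 and 2 genes were called. In single-lineage cells 46 had a higher and 77 a lower response in CD8 T cells (0.6% and 1.0%, in all 1.6% of 7667). Gzma had the largest positive difference, with a response of 1.78 in CD8 T cells and -2.10 in CD4 T cells (fitted difference 3.28 ± 0.35, adjusted p = 5.6e-07; all gated cells 2.67, adjusted p = 0.69). Itgae differed by -3.07 in the fit (adjusted p = 0.0049; all gated cells -1.18, adjusted p = 0.96), with responses of -2.25 in CD8 T cells and 1.21 in CD4 T cells, and Klf2 by 0.56 (adjusted p = 0.02). Ifitm1, Ccl4 and Ccl3 differed by -5.00, -4.92 and -4.83 in single-lineage cells, and stood at 337, 340 and 203 plain CPM in CD4 T cells of KO LPS replicate 1 against at most 24.3, 97.4 and 68.7 in those of the other libraries. Ly6c1, a surface protein of memory CD8 T cells, and Cxcl2, a neutrophil chemokine, had larger responses in CD8 T cells (1.93 and 3.11). In single-lineage cells 0 of 20 interferon gamma inducible genes and 0 of 22 MHC class I genes were called. Of the type I interferon list, 3 of 50 had a higher response in CD8 T cells (Slfn5, Slfn1 and Ly6a) and 1, Epsti1, a lower one, beside the 1.6% called among all genes.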

How the data were processed

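For each library the authors deposited a filtered 10x matrix whose values are whole UMI counts per gene and barcode, with no normalization. Per the submitters' processing notes, Cell Ranger 6.1.0, Seurat 4.1.0, R 4.1.3 and the build mm10 were used, with no role given for each. No source used here names the annotation release. Whole libraries held 55361477 to 115225284 UMIs, and the summed CD8 T cells 932136 to 3994136.

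Cells were gated by UMI counts as described, with groups taken from the sample titles. The members, gene lists and tests were chosen with earlier results of these data known. The split into single-lineage and mixed-lineage barcodes, the Xist-only comparison and the crossed pairing were chosen after seeing the data. UMIs were summed per library and tested with edgeR 4.0.16 in R 4.3.3 (quasi-likelihood test, filterByExpr, trimmed mean of M values, 1 group term for all 6 libraries, Benjamini-Hochberg adjustment over all genes tested, threshold 0.05). CD8 T cells were set against NK cells and CD4 T cells with the library as a block. The CD4 gate mirrored the CD8 gate, and the NK gate needed an Ncr1 UMI and no Cd3 UMI. Shares were compared by exact permutation over libraries (SciPy 1.17.1). DESeq2 1.42.0, no low-count filter, other gate limits, thinning to 1500 UMIs, Scrublet scores (scanpy 1.11.5) and leaving out each LPS library were alternatives, and the scripts were tested on simulated data.

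Named genes were the 12 largest rises and falls with LPS and the 5 in each direction between genotypes, among called genes with at least 50 CPM on the higher side, no overlap of libraries and a level of at least 0.5 of that over all barcodes in each library of the higher side. They were joined by 3 per direction for the difference in response, 4 per direction for each cell type comparison, up to 4 per list and a fixed set. The rule was applied to all gated and to single-lineage cells. Some genes it names are not reported here. Other members of the lists, and genes that describe the sex marks or the vehicle libraries, were named after their values were seen. Promoter windows come from RefSeq (GRCm38.p6). Intervals and floors cover counting error only. Counting is not stated to use strand, so overlapping genes cannot be told apart.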

Additional observations from a re-analysis of the deposited data

Results flagged for a closer look

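Comparisons of responses gave 19 results to look at again, each called in all gated CD8 T cells by a test of the difference itself. Between KO and WT, the log2 response to LPS differed by -3.73 for Gzma, -3.45 for Gzmb, -2.22 for Cxcl10, -2.0 for Ifit3, -1.57 for Irf7 and -1.21 for Ccl5, each smaller in KO. The same comparison gave 19.8 for Ddx3y, 18.6 for Eif2s3y and -14.2 for Xist, the genes of the sex marks, and 9.42 for Scgb1a1 and -4.37 for Sftpc, airway and alveolar genes with 99.89% and 98.2% of their vehicle UMIs in mixed-lineage barcodes. Fitted values against a group at 0 depend on the prior count and are no bound.

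Between CD8 T cells and NK cells, the log2 response differed by 3.4 for Eomes, 3.29 for Fgl2, 2.66 for Ndrg3 and 2.6 for Itgam, each larger in CD8 T cells, and by -8.69 for Wfdc2, -8.22 for Cyp2f2, -7.61 for Sftpa1 and -3.09 for Gm12840, each smaller. Of the LPS UMIs of Fgl2 and Itgam in CD8 T cells, 92.3% and 92.7% were in mixed-lineage barcodes.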

How the results depend on the processing

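The 2983 genes called with LPS in all gated cells became 1397 with DESeq2, 1349 without cells holding Klrb1c, Trdc, Tyrobp or Fcer1g UMIs, 1807 with each cell thinned, 1140 in the KO libraries alone with Xist-only LPS cells (1026 in single-lineage cells), and 1332 to 2861 when 1 LPS library was left out (2169 to 2541 in single-lineage cells).

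The 56 genes called between KO LPS and WT LPS became 513 with no low-count filter, 144 with DESeq2, 12 with a mitochondrial limit of 5%, 6 with at least 2 Cd8 UMIs, 18 without cells holding Klrb1c, Trdc, Tyrobp or Fcer1g UMIs, 131 with thinning, 4 with Xist-only cells and 0 to 159 when 1 library was left out. Single-lineage cells gave 98, or 105 with Xist-only cells and 89 to 162 when 1 library was left out. The 22 differences in response became 227, 57, 8 (2 Cd8 UMIs), 14 (highest Scrublet scores removed), 10 (Klrb1c and the others), 80 (thinned), 8 (Xist-only) and 0 to 92 under such settings, and 53 in single-lineage cells (44 with Xist-only cells, 78 to 129 with 1 library left out). Between CD8 and CD4 T cells, the 0 became 116 with no low-count filter, 123 in single-lineage cells and 0 to 121 with 1 library left out. Between CD8 T and NK cells, the 159 became 462, 566 and 50 to 205. The share differences were -5.41 to -5.06 and 15.4 to 17.0 percentage points when 1 LPS library was left out.

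Same-numbered LPS libraries deviated from their group means with a correlation of -0.17, and the crossed pairing gave 0.17. With 2 libraries per LPS group these values mirror each other, so they cannot tell whether replicate numbers pair the libraries. With the replicate block, 29 genes were called between genotypes and 10 in the difference (108 and 50 in single-lineage cells). The crossed pairing called 590 and 266.

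Of the named genes' values under alternatives, 1985 kept their direction and side of the threshold, 140 lost the call, 48 gained it and 30 changed sign. The KO difference of Klf4 was -0.36 in single-lineage cells, and among those -0.91 with Xist-only cells and -0.41 with the replicate block. It was -1.06 without cells holding Klrb1c and the others, and -0.78 to 1.60 with 1 library left out of either set. That of Top2a ran from -0.74 to 1.45 with 1 library left out. The response difference of Scgb1a1 was -0.25 with Xist-only single-lineage cells and -0.57 to 9.81 with 1 library left out. That of Sftpc was 1.62 (Scrublet), 4.56 (Klrb1c and the others), 2.60 (single-lineage), 2.57 (single-lineage, block) and -4.68 to 2.82. With LPS, Top2a gave 1.76 (Klrb1c and the others), 0.87 (single-lineage), 1.22 (single-lineage, Xist-only), 0.61 (single-lineage, block) and -0.76 to 1.14, and Mki67 -0.80 to 0.77 with 1 library left out. In single-lineage cells of the KO libraries alone, with LPS cells restricted to Xist-only ones, Dusp1, Tnfaip3 and Fkbp5 gave -0.10, -0.0062 and -0.25. The cause of these moves was not tested.

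Plain CPM shifted the median gene by -0.20 (LPS) and 0.16 (KO against WT) relative to the scaled values. With 135 to 688 cells per library, and 1 vehicle library per genotype, genes of low level could not be compared between genotypes at this depth. In all gated cells the number of calls between KO LPS and WT LPS hung on single libraries, at 0 to 159 when 1 LPS library was left out. In single-lineage cells it was 89 to 162.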
